A study of Mus musculus with 2 samples.

Results

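The 9 genes described here encode enzymes of the citrate cycle and the enzyme that refills it from pyruvate. They are citrate synthase (Cs), isocitrate dehydrogenases (Idh3a and Idh2), 2-oxoglutarate dehydrogenase (Ogdh), succinyl-CoA synthetase subunits (Sucla2 and Suclg2), fumarase (Fh1), mitochondrial malate dehydrogenase (Mdh2) and pyruvate carboxylase (Pcx). They were picked by gene symbol, and all 9 symbols were found among the 32285 genes of the files. Their RNA was measured by single-cell RNA sequencing of dissociated brain. The mice were females aged 11 to 12 months in which human APOE replaces the mouse gene at its own locus, so that both groups lack mouse Apoe and carry a human allele under the mouse promoter. One group was homozygous for E4, the allele that raises the risk of Alzheimer's disease, and the other was homozygous for E3, the common allele. Tissue came from the right hemisphere, with brainstem and cerebellum removed, was dissociated with enzymes at raised temperature, and was pooled over 3 mice of a genotype to give 1 library each. The question was how levels of these enzymes differ between brain cell types, and between E4 and E3 within a cell type.

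With 1 library per genotype, no difference between E4 and E3 could be tested. The intervals printed here are exact 95% intervals that cover counting error only. Genotype cannot be told apart from the pool of mice, the library and the version of the alignment software. Counts of unique molecular identifiers (UMIs, each standing for 1 captured RNA molecule) were summed over the cells of a class and expressed per 1000000 UMIs of that class (CPM).

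The filter kept 13528 of 13802 E4 cells and 11288 of 11485 E3 cells, with a median of 4085 UMIs per barcode in the E4 library and 3784 in the E3 library. The 2 libraries shared 46 cell barcodes. Cells were grouped without using the 9 genes, and 10 classes named from marker genes held at least 100 cells in each library. Mural-like cells, with 193 cells in E4 and 92 in E3, fell short of that and were left out of every order of classes below. Astrocyte-like cells numbered 3284 in E4 and 2709 in E3, and microglia-like cells 3678 and 3055 (E4 and E3). The 10 astrocyte markers summed to 25358 CPM (E4) and 24465 CPM (E3) in the astrocyte-like class, against 695 CPM (E4) and 682 CPM (E3) in the microglia-like class. The 8 neuron markers summed to 33.4 CPM (E4) and 39.1 CPM (E3) in astrocyte-like cells, and no class was named for neurons. In every class, transcripts of haemoglobin and of loci that overlap ribosomal RNA took a larger part of the total in E3 than in E4. In astrocyte-like cells these were 16303 CPM in E4 and 36857 CPM in E3, and their part in the small differences between libraries was not tested.

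The citrate cycle runs in the mitochondrial matrix and oxidises the acetyl group of acetyl-CoA to carbon dioxide, passing electrons on to the respiratory chain. Intermediates leave it for synthesis. In brain, export of glutamine from astrocytes to neurons drains 2-oxoglutarate, and pyruvate carboxylase, long known as an astrocyte enzyme in rodent brain, replaces the loss by making oxaloacetate. Succinyl-CoA synthetase exists in an ATP-forming version with the Sucla2 subunit and a GTP-forming version with the Suclg2 subunit, which share the subunit from Suclg1. Isocitrate is oxidised by the NAD-dependent enzyme, whose catalytic subunit is Idh3a, or by the NADP-dependent Idh2, which supplies reducing power to the mitochondrion.

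The genes lie on 9 different chromosomes of the mouse genome (GENCODE vM21 on GRCm38). Pcx occupies chr19:4510472-4621752 on the plus strand and Cs chr10:128337734-128362479 on the plus strand. Sucla2 occupies chr14:73525319-73596142 on the plus strand, and Suclg2 chr6:95473009-95718800 on the minus strand. Fh1 overlaps Kmo and Pcx overlaps Lrfn4, genes of the opposite strand that are also in the files. Neither neighbour has an exon in the last 1000 bases of the enzyme gene, where 3′ sequencing takes its reads. Promoter windows of Sucla2, Suclg2 and Pcx are shown because the ratio of the synthetase subunits and the differences among astrocyte-like cells turn on these 3 genes. The Sucla2 window lies inside the annotated span of the gene, whose first annotated base is farther upstream. Each runs from 250 bases before the transcription start to 50 bases after it (RefSeq, GRCm38.p6), 5′ to 3′ on the strand of the gene. Capitals mark matches on either strand to GCGCA, any base and GCGC in a row (the core of the site of nuclear respiratory factor 1), GGGCGGG (the GC box of Sp1) or CCAAT, and where matches overlap the capitals run on.
Sucla2, chr14:73552536-73552835, plus strand: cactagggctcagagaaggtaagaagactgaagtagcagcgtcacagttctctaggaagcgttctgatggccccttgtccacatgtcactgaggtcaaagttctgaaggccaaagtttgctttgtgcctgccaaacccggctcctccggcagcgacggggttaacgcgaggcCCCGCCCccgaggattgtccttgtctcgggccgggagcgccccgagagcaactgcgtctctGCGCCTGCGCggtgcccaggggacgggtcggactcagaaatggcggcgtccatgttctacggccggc
Suclg2, chr6:95718797-95719096, minus strand: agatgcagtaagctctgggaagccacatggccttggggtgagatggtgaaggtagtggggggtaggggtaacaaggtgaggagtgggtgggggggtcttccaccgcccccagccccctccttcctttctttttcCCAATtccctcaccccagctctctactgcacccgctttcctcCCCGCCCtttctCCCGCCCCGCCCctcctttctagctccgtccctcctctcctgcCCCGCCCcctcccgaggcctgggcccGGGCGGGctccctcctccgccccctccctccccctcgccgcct
Pcx, chr19:4510222-4510521, plus strand: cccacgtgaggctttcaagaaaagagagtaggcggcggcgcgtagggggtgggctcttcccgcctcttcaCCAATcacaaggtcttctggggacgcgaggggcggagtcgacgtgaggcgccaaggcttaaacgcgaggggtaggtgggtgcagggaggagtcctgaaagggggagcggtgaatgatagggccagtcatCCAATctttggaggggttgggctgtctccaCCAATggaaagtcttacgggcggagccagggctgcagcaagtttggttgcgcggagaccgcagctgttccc
Of 8 members with a window in the table, Sucla2 alone held the nuclear respiratory factor 1 letters, which 4.78% of 27025 promoters hold. A GC box was present in 6 of 8 members against 25.8% of all promoters, and the Pcx window had none. CCAAT was present in 6 of 8 members against 37.9% of all promoters. The letters AAGGTCA (the core site of estrogen-related receptors) and CCGGAAG (GA-binding protein), searched on both strands, were in 0 of 8 member windows, against 4.66% and 9.12% of all promoters. TGACGTCA (the cAMP response element) was in the windows of Ogdh and Mdh2, against 1.88% of all promoters. Such matches describe letters only. For Pcx and Ogdh, which have several windows in the table, the first listed was taken.

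Cs, which joins acetyl-CoA to oxaloacetate and so opens the cycle, was the member most set apart by astrocyte-like cells. Its level there was 141 CPM in E4 (interval 135 to 147) and 141 CPM in E3. The class next in order was neuroprogenitor-like in E4, at 56.7 CPM, and ependymal-like in E3, at 50.2 CPM. Astrocyte-like cells stood 2.48-fold above the next class in E4 (2.08 to 2.99) and 2.82-fold in E3 (2.37 to 3.38). Below them the classes lay close together: 7 of the 9 steps between neighbouring classes in the order of Cs levels had intervals that included no difference, in each library. Microglia-like cells had 37.3 CPM of Cs in E4 and 34.6 CPM in E3. A UMI of Cs was present in 40.8% of astrocyte-like cells in E4 (39.1 to 42.5) and 41.4% in E3, against 14.8% and 12.1% of microglia-like cells (E4 and E3). In erythroid-like cells, which should hold no mitochondria once mature, the share was 3.54% in E4 and 0.69% in E3. With each cell thinned to 1000 UMIs, 12.9% of astrocyte-like cells in E4 and 11.8% in E3 had a Cs UMI, and 4.04% and 3.27% of microglia-like cells.

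Pcx was the other member highest in astrocyte-like cells in both libraries. Its level there was 36.5 CPM in E4 (33.3 to 39.8) and 34.4 CPM in E3 (31.2 to 37.9). Oligodendrocyte-like cells came next, with 20.6 CPM in E4 and 25.2 CPM in E3, which put astrocyte-like cells 1.77-fold higher in E4 (1.47 to 2.14) and 1.37-fold higher in E3 (1.13 to 1.66). Counted per UMI of nuclear genes of oxidative phosphorylation in place of all UMIs, Pcx in E3 astrocyte-like cells stood at 0.966 times the erythroid-like value, which rests on 3 Pcx UMIs. Oligodendrocyte-like cells remained below, with 1.16 Pcx UMIs per 1000 UMIs of those genes in E3, against 1.33 in astrocyte-like cells. Microglia-like cells were near the bottom with 2.99 CPM in E4 and 3.62 CPM in E3, from 49 and 42 UMIs (E4 and E3). Meningeal-like cells had 8 UMIs in E4 and 6 in E3. A Pcx UMI was seen in 13.5% of astrocyte-like cells in E4 and 12.1% in E3, against 1.33% and 1.34% of microglia-like cells (E4 and E3) and 0.885% and 2.07% of erythroid-like cells (E4 and E3). The microglia-like share was above the erythroid-like one in E4 and below it in E3, and the erythroid-like shares rest on 1 (E4) and 3 (E3) Pcx UMIs. Free RNA in the suspension can give low shares in cells that lack a transcript, and its part here was not tested. Median depth was 4022.5 (E4) and 4061 (E3) UMIs in astrocyte-like, 4291.5 (E4) and 3698 (E3) in microglia-like and 4742 (E4) and 6693 (E3) in erythroid-like cells. Thinned to 1000 UMIs, 4.10% of astrocyte-like cells in E4 and 3.55% in E3 held a Pcx UMI, against 1.71% (E4) and 1.93% (E3) of oligodendrocyte-like and 0.300% (E4) and 0.367% (E3) of microglia-like cells. The UMI ratio of Pcx to Cs put other classes first: it was 0.508 (E4) and 0.545 (E3) in choroid plexus-like and 0.473 (E4) and 0.533 (E3) in oligodendrocyte-like cells, against 0.259 (E4) and 0.244 (E3) in astrocyte-like cells, whose Cs was itself the highest.

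Choroid plexus-like cells, the secretory epithelium of the ventricles, held the highest levels of 4 other members in both libraries. Mdh2, which regenerates oxaloacetate from malate, reached 278 CPM in E4 and 283 CPM in E3 there, against 161 CPM (E4) and 158 CPM (E3) in astrocyte-like cells. Idh3a reached 223 CPM in E4 (211 to 235) and 208 CPM in E3, and Sucla2 147 CPM in E4 and 139 CPM in E3. For Sucla2 the step down to astrocyte-like cells was 2.04-fold in E4 (1.86 to 2.23) and 1.78-fold in E3 (1.61 to 1.96). Fh1, which hydrates fumarate, was at 51.8 CPM in E4 and 44.7 CPM in E3, and its lead over astrocyte-like cells had intervals that included no difference (1.11-fold in each library, 0.971 to 1.28 in E4). Mural-like cells were outside these orders. Without mitochondrial, haemoglobin and rRNA-overlapping transcripts in the total, their Sucla2 was at 118 CPM (E4) and 46.6 CPM (E3). Astrocyte-like cells had 81.3 CPM (E4) and 89.1 CPM (E3) of Sucla2 on that total. Mural-like Fh1 was at 55.0 CPM (E4) and 50.9 CPM (E3, from 12 UMIs), against 57.1 CPM (E4) and 49.5 CPM (E3) in choroid plexus-like cells.

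Ependymal-like cells, the ciliated lining of the ventricles, led for Idh2 and Suclg2. Idh2 stood at 249 CPM in E4 (229 to 270.0) and 258 CPM in E3, 1.56-fold (E4) and 1.67-fold (E3) above choroid plexus-like cells. Suclg2 stood at 76.0 CPM in E4 and 90.8 CPM in E3. Ogdh, the entry subunit of the complex that turns 2-oxoglutarate into succinyl-CoA, was highest in meningeal-like cells, at 124 CPM in E4 and 119 CPM in E3. Choroid plexus-like cells had 122 CPM (E4) and 109 CPM (E3) of Ogdh, which was not apart from the meningeal level beyond counting error in either library.

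Per UMI of the whole class, erythroid-like cells were lowest for all 9 members in both libraries, with sums of 59.2 CPM in E4 and 46.7 CPM in E3. Haemoglobin and rRNA-overlapping transcripts made up 868513 CPM (E4) and 897090 CPM (E3) of that class. With those and mitochondrial transcripts taken out of the total, the 9 members summed to 499.9 CPM in E4 and 503 CPM in E3 in erythroid-like cells. These sums rest on few UMIs, the most for any member being 9 in E4 and 10 in E3 (Mdh2). On that total erythroid-like cells were no longer lowest for every member. Idh3a was at 65.8 CPM (E4) and 54.7 CPM (E3), from 5 UMIs each, against 22.3 CPM (E4) and 25.5 CPM (E3) in microglia-like cells. Idh2 was at 65.8 CPM (E4) and 98.5 CPM (E3), from 5 and 9 UMIs (E4 and E3), against 99.6 CPM (E4) and 99.9 CPM (E3) in microglia-like cells.

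**Figure D1:**
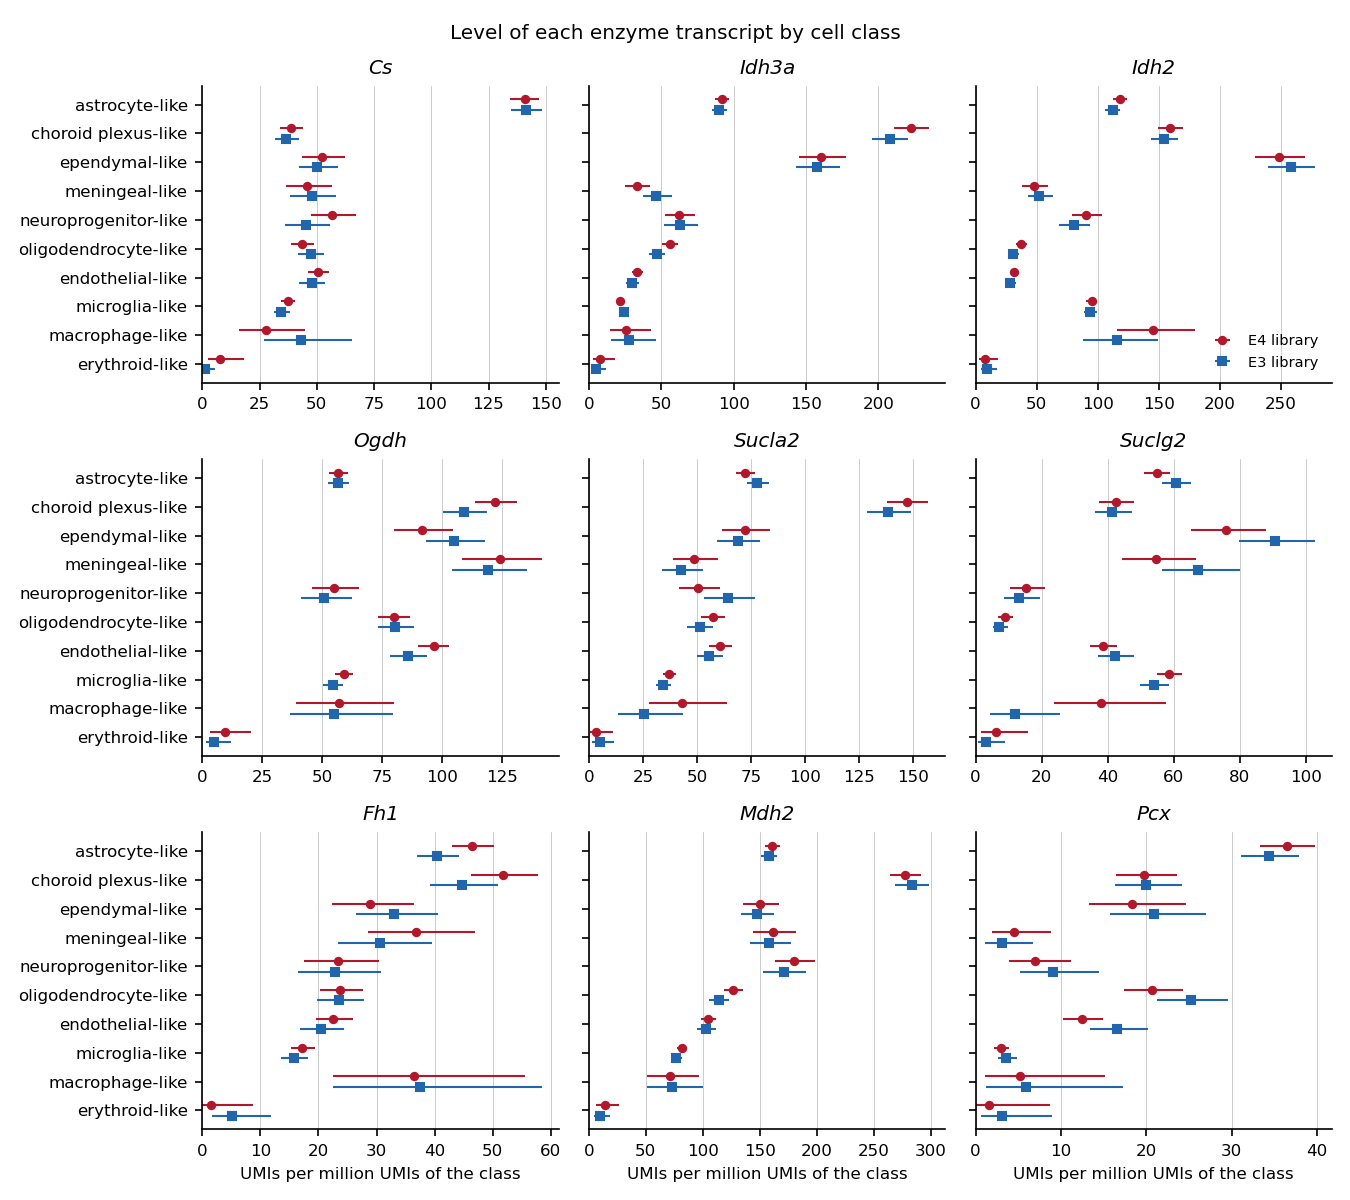
Level of each of the 9 enzyme transcripts, in CPM of the class, in 10 cell classes (rows). Circles are the E4 library and squares the E3 library, bars are exact 95% Poisson intervals of the counts, and each panel has its own axis. Cs and Pcx peak in astrocyte-like cells, 4 members peak in choroid plexus-like cells, and the 2 libraries nearly coincide in most rows.

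Members did not share 1 order of classes. Over the 10 classes, Pearson's r of log2(CPM + 1) between 2 members ran between 0.276 for Suclg2 with Pcx and 0.97 for Sucla2 with Mdh2. These points share libraries and depth, and the erythroid-like class is low for every member. Taken as a sum, the 9 members were highest in choroid plexus-like cells, at 1082 CPM in E4 and 1036 CPM in E3. Ependymal-like cells had 899 CPM in E4 and 932 CPM in E3. That order rests on Mdh2 in E3: without it the sum was 805 CPM (E4) and 753 CPM (E3) in choroid plexus-like cells and 749 CPM (E4) and 785 CPM (E3) in ependymal-like cells. With all 9, astrocyte-like cells had 779 CPM in E4 and 772 CPM in E3. The lowest sum apart from erythroid-like cells was 411 CPM in E4 and 392 CPM in E3, in microglia-like cells. Set against the 71 nuclear genes of oxidative phosphorylation the order changed. Per 1000 UMIs of those genes, the members had 43.8 UMIs in E4 and 40.8 in E3 in ependymal-like cells, 32.4 (E4) and 29.8 (E3) in astrocyte-like cells, 33.4 (E4) and 30.1 (E3) in microglia-like cells and 16.5 (E4) and 14.8 (E3) in choroid plexus-like cells.

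The 2 succinyl-CoA synthetase subunits divided the classes. A ratio of UMIs between 2 genes also carries how well each is captured, so it was read only between classes. Suclg2 to Sucla2 UMIs stood at 1.58 in E4 and 1.57 in E3 in microglia-like cells. Ependymal-like cells had 1.05 (E4) and 1.32 (E3), and meningeal-like cells had 1.13 (E4) and 1.59 (E3), the E3 value being slightly above that of microglia-like cells with an interval of 1.19 to 2.12. In astrocyte-like cells the ratio was 0.760 in E4 and 0.778 in E3, from 766 and 1008 UMIs (Suclg2 and Sucla2) in E4. Astrocyte-like minus microglia-like, the log2 ratio differed by -1.06 in E4 (-1.26 to -0.85) and -1.01 in E3 (-1.24 to -0.78). Oligodendrocyte-like cells lay at the other end, with 0.157 in E4 and 0.14 in E3. There Suclg2 had only 9.0 CPM in E4 and 7.2 CPM in E3, while Sucla2 had 57.3 CPM (E4) and 51.2 CPM (E3). Choroid plexus-like cells (0.288 in E4 and 0.299 in E3) and neuroprogenitor-like cells (0.299 in E4 and 0.207 in E3) were also low. Suclg1, the subunit that both forms need, was at 300.1 CPM (E4) and 299.7 CPM (E3) in astrocyte-like cells, against 82.9 CPM (E4) and 83.4 CPM (E3) in microglia-like cells.

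The isocitrate dehydrogenases divided the classes in another way. Idh2 to Idh3a UMIs stood at 4.47 in E4 (3.97 to 5.03) and 3.92 in E3 (3.43 to 4.49) in microglia-like cells. Macrophage-like cells had 5.60 in E4 and 4.21 in E3, with wide intervals from 15 and 14 UMIs of Idh3a (E4 and E3). Astrocyte-like cells had 1.283 in E4 and 1.246 in E3, which is 0.287 times the microglia-like ratio in E4 (0.25 to 0.33) and 0.318 times in E3 (0.271 to 0.372). The ratio was 0.671 in E4 and 0.656 in E3 in oligodendrocyte-like cells and 0.716 in E4 and 0.744 in E3 in choroid plexus-like cells. Microglia-like cells reached their ratio through Idh3a, at 21.3 CPM in E4 and 24.0 CPM in E3, while their Idh2 was at 95.1 CPM (E4) and 94.03 CPM (E3), beside the 118 CPM (E4) and 112 CPM (E3) of astrocyte-like cells. Idh3g, a regulatory subunit of the NAD-dependent enzyme, did not follow Idh3a down and stood at 84.9 CPM (E4) and 85.6 CPM (E3) in microglia-like cells, against 77.9 CPM (E4) and 73.7 CPM (E3) in astrocyte-like cells.

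**Figure D2:**
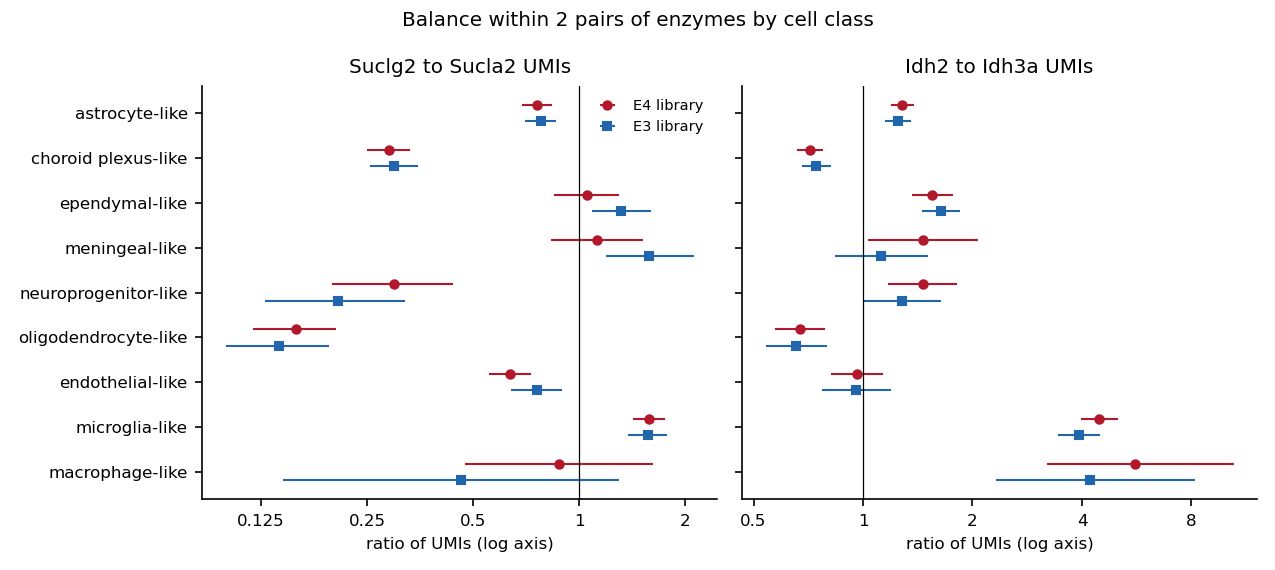
Ratio of Suclg2 to Sucla2 UMIs (left) and of Idh2 to Idh3a UMIs (right) on log axes in 9 cell classes, with erythroid-like cells left out for their few UMIs. Circles are the E4 library, squares the E3 library and bars exact 95% intervals; microglia-like cells lie at 1.58 (E4) and 1.57 (E3) on the left and oligodendrocyte-like cells at 0.157 (E4) and 0.14 (E3).

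Astrocyte-like cells were clustered again, without the 9 genes, and 6 groups were kept, each called here by its leading genes. Cs was even across them: its highest level was 1.21 times its lowest in E4 and 1.14 times in E3. Idh2 and Pcx were not even, and among the 4 largest groups the 2 highest for Idh2 were the 2 lowest for Pcx. In the group led by Hes5, Dapp1 and Lmcd1, Idh2 was at 154 CPM in E4 (142 to 168) and 141 CPM in E3 (128 to 154), and Pcx at 22.9 CPM in E4 (18.3 to 28.4) and 20.8 CPM in E3. The group led by Pde10a, Chrdl1 and Lrrc8c had 122 CPM (E4) and 103 CPM (E3) of Idh2 and 26.8 CPM (E4) and 19.2 CPM (E3) of Pcx. In contrast, the group led by Nkx6-2, Ttll3 and Igsf1 had 95.5 CPM (E4) and 76.2 CPM (E3) of Idh2 and 56.4 CPM (E4, 46.7 to 67.6) and 46.3 CPM (E3, 36.5 to 58.0) of Pcx. The group led by Car14, A330076C08Rik and Ntrk3 was similar, with Idh2 at 75.9 CPM (E4) and 76.2 CPM (E3) and Pcx at 39.8 CPM (E4) and 38.3 CPM (E3). A smaller group, led by Fxyd6, 6330403K07Rik and Thbs4 and with Gfap among its 10 leading genes, was high for both: Idh2 was at 172 CPM in E4 and 182 CPM in E3, and Pcx at 61.9 CPM in E4 and 87.0 CPM in E3. Suclg2 also peaked in that group, at 80.5 CPM in E4 and 95.7 CPM in E3. The last group, led by Syne1, Gm26917 and Ddx17, had 0.451 times the median UMIs of its libraries and few UMIs of any member (19 of Pcx in E4 and 11 in E3). Among the 3 clusters of microglia-like cells, the 8 members other than Pcx varied by at most 1.32 times in E4 and 1.26 times in E3 between the lowest and highest cluster.

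**Figure D3:**
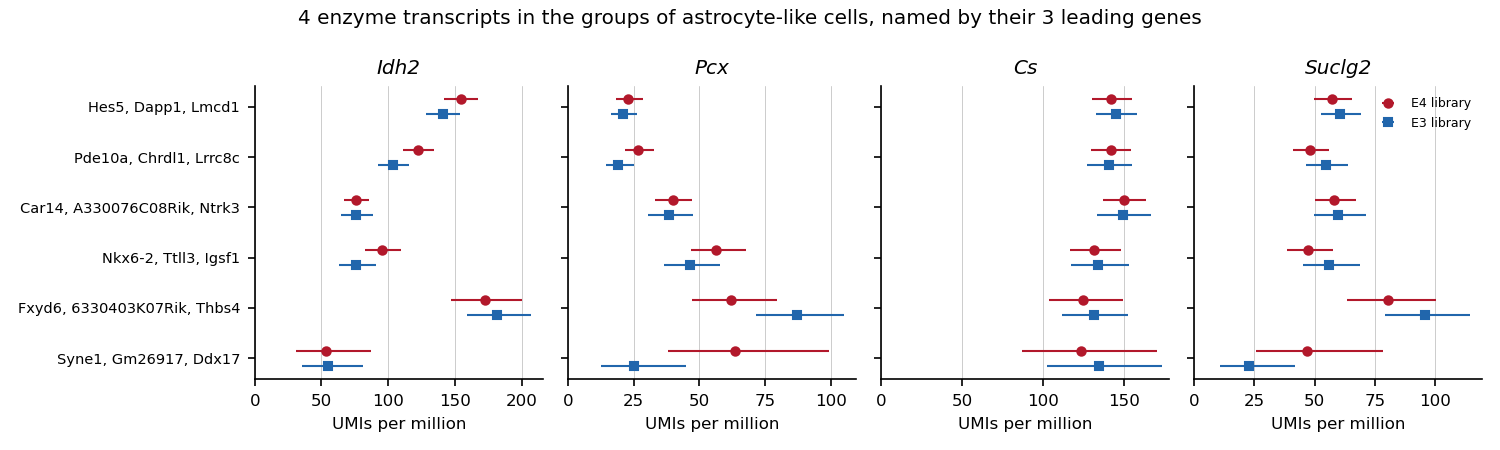
Idh2, Pcx, Cs and Suclg2 in 6 groups of astrocyte-like cells (rows, named by their 3 leading genes), in CPM of the group. Circles are the E4 library, squares the E3 library and bars exact 95% Poisson intervals; Idh2 is higher and Pcx lower in the Hes5 and Pde10a groups than in the Car14 and Nkx6-2 groups, while Cs is even.

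Between genotypes, levels of the 9 enzymes in astrocyte-like cells were close. The median log2 ratio of E4 to E3 was 0.03, with a range of -0.14 to 0.20, and 5 members were higher and 4 lower in E4. The median over all 9480 genes with at least 200 UMIs was 0.01, and 4979 of them were higher in E4. A size limit of 25% higher or 20% lower in E4, the same fold in either direction, was used in place of a test. No member passed it (0 of 9), while 3.25% of all genes with at least 200 UMIs were past it higher and 2.91% lower. Fh1 was the 1 member whose interval lay off 0: 46.5 CPM in E4 and 40.4 CPM in E3, a log2 ratio of 0.20 (0.03 to 0.38), and it was higher in E4 in 5 of the 6 groups of these cells. Over all 9480 genes, 1210 intervals lay above 0 and 1009 below, so 1 of 9 members does not set these genes apart. Sucla2 (72.3 CPM in E4 and 78.0 CPM in E3) was lower in E4 in 6 of 6 groups and Suclg2 (55.0 CPM in E4 and 60.7 CPM in E3) in 5 of 6, with intervals that included 0 in the whole class. Within groups, 0 of 6 intervals lay off 0 for Sucla2 and for Suclg2, and 2 of 6 for Fh1. The groups are parts of the same 2 libraries, so they are not replicates of a genotype. Cs differed by -0.01 (-0.10 to 0.09) and Mdh2 by 0.03 (-0.06 to 0.12).

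In microglia-like cells, 7 of the 8 members with at least 200 UMIs were higher in E4 and 1 (Idh3a) was lower. Most genes leaned the same way, with 5532 of 8916 higher in E4. The median of the members was 0.11, beside 0.05 for all genes. All 8 intervals included 0, and 0 of 8 passed the limit, against 4.95% of all genes higher and 1.77% lower. Over all 8916 genes with at least 200 UMIs, 1712 intervals lay above 0 and 650 below. Of 21 genes of the immediate-early and stress response, 18 were higher in the E4 library in the same cells (median 0.31), and their part in these values was not tested. In endothelial-like cells 7 of 9 members were higher in E4 (median 0.12, beside 0.06 for all genes), as were 4955 of 7742 genes in all. Ogdh (96.6 CPM in E4 and 85.9 CPM in E3) had an interval above 0 there (log2 ratio 0.17, 0.01 to 0.33). Pcx was past the limit lower there, at 12.4 CPM in E4 and 16.6 CPM in E3 from 111 and 97 UMIs (E4 and E3), a log2 ratio of -0.42 (-0.82 to -0.01). That made 1 of 9 past the limit, against 7.94% of all genes higher and 2.21% lower. Over all 7742 genes with at least 200 UMIs there, 1373 intervals lay above 0 and 556 below. As a mean of each cell's own CPM the ratio of Pcx was -0.08, and with called doublets left out or a coarser clustering it had under 200 UMIs. Astrocyte markers in that class summed to 2362 CPM in E4 and 1803 CPM in E3, and oligodendrocyte markers to 1099.9 CPM in E4 and 1046 CPM in E3.

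Oligodendrocyte-like cells showed higher Idh2 in E4 (37.5 CPM, against 30.7 CPM in E3), a log2 ratio of 0.29 (0.01 to 0.57), and higher Idh3a (55.9 CPM in E4 and 46.8 CPM in E3), a log2 ratio of 0.26 (0.03 to 0.48). Mdh2 was at 126 CPM in E4 and 114 CPM in E3, a log2 ratio of 0.15 (0.00 to 0.29), with its interval just above 0. Over all 6805 genes with at least 200 UMIs in these cells, 1179 intervals lay above 0 and 516 below. Pcx was at 20.6 CPM in E4 and 25.2 CPM in E3, with an interval that included 0. The median of the 8 members with enough UMIs was 0.08, beside 0.04 for all genes. None of the 8 passed the limit in these cells, against 9.01% of all genes higher and 2.35% lower. Counted per UMI of nuclear genes of oxidative phosphorylation, 2 passed it higher (Idh2 at 0.40 and Idh3a at 0.36), and centred on the median gene, 1 passed it lower (Pcx at -0.33). Microglia markers in this class summed to 1275 CPM in E4 and 834 CPM in E3, and their part in the Idh2 value was not tested. Over all cells together, 0 of 9 members passed the limit, beside 5.47% of all genes higher and 5.44% lower, and the median was -0.01. There Fh1 was higher in E4 by 0.12 (0.03 to 0.22), Ogdh by 0.06, and Pcx fell by 0.17 (-0.29 to -0.05). Intervals off 0 were common there: of all 13979 genes, 4550 lay above 0 and 2348 below. In astrocyte-like cells alone the Pcx ratio was 0.08 (-0.11 to 0.27). Endothelial-like cells made up 11.7% of E4 and 9.51% of E3 cells, and the part of the cell mix in the value over all cells was not tested.

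In the smaller classes few members differed beyond counting error. Choroid plexus-like cells had at least 200 UMIs of all 9 members, and the other smaller classes fell short of that for some or all members. Ogdh in choroid plexus-like cells was higher in E4, by 0.16 (0.00 to 0.32) on the log2 scale. Of all 4919 genes with at least 200 UMIs in that class, 631 had intervals above 0 and 417 below. Idh3a in meningeal-like cells was at 32.9 CPM in E4 and 46.7 CPM in E3, from 59 and 90 UMIs (E4 and E3), and Suclg2 in macrophage-like cells at 38.1 CPM in E4 and 11.8 CPM in E3, from 22 and 6 UMIs (E4 and E3). Both lie under the minimum of 200 UMIs set for a ratio. All members of ependymal-like and neuroprogenitor-like cells had intervals that included 0. With at least 200 UMIs, 0 of 9 members passed the size limit in choroid plexus-like cells (6.91% of all genes higher and 3.8% lower), 0 of 7 in ependymal-like cells (5.4% higher and 4.91% lower) and 0 of 3 in meningeal-like cells (6.16% higher and 5.28% lower). In neuroprogenitor-like cells 2 of 6 passed it, beside 11.3% of all genes higher and 5.95% lower. Cs was past it higher, at 56.7 CPM in E4 and 45.2 CPM in E3 from 131 and 85 UMIs (E4 and E3), a log2 ratio of 0.33 (-0.08 to 0.74). Sucla2 was past it lower, at 50.6 CPM in E4 and 64.3 CPM in E3 from 117 and 121 UMIs (E4 and E3), a log2 ratio of -0.35 (-0.73 to 0.03). Neither passed as a mean of each cell's own CPM (0.17 for Cs and -0.22 for Sucla2), and with a stricter cell filter 0 passed.

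**Figure D4:**
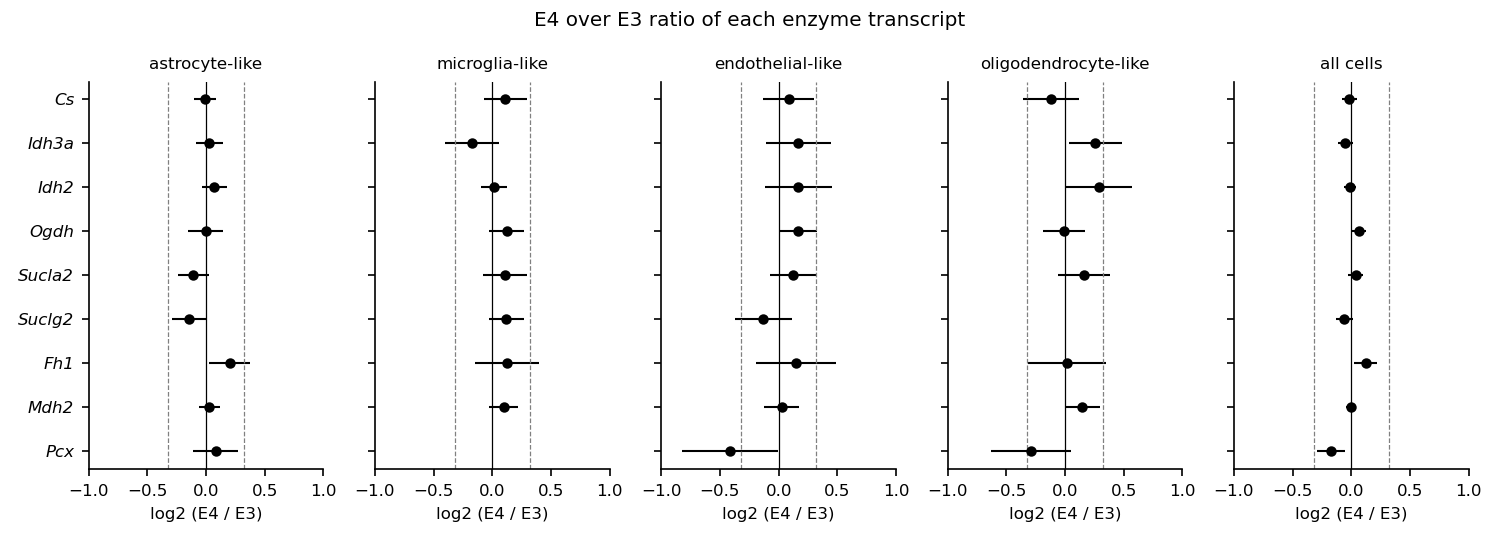
Log2 ratio of E4 to E3 for each enzyme transcript in 4 cell classes and in all cells. Points are the ratios of CPM, bars exact 95% intervals that cover counting error only, and dashed lines mark 25% higher and 20% lower; members with under 200 UMIs in a class are not drawn. Pcx in endothelial-like cells, at -0.42, is the 1 point past a dashed line.

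The other enzymes of the cycle were as close. Of 10 further subunits, 6 were higher and 4 lower in E4 astrocyte-like cells, with a median of 0.01 and 0 past the limit. Abundant ones were Suclg1, Sdhb at 174 CPM in E4 and 183 CPM in E3, and Sdha at 161 CPM in E4 and 164 CPM in E3, the last pair being subunits of succinate dehydrogenase. Of 20 enzymes and carriers that feed or drain the cycle, 13 were higher and 7 lower. Glud1, which makes 2-oxoglutarate from glutamate, was at 753 CPM in E4 and 704 CPM in E3 (log2 ratio 0.10, 0.06 to 0.14), and cytosolic Idh1 at 112 CPM in E4 and 129 CPM in E3 (-0.20, -0.30 to -0.10). Among 11 genes of the pyruvate dehydrogenase step, 2 were higher and 9 lower in E4. The 2 past the limit were Pdk1 and Pdp1, both lower, beside 3.25% of all genes higher and 2.91% lower. Pdk1, a kinase that switches the complex off, was at 16.7 CPM in E4 and 22.5 CPM in E3 (-0.43, -0.69 to -0.17). Pdp1, a phosphatase that switches it on, was at 8.32 CPM in E4 and 11.4 CPM in E3 (-0.45, -0.82 to -0.08). Of the 11 intervals 3 lay below 0, the third being that of Pdha1, at 88.1 CPM in E4 and 98.2 CPM in E3 (-0.16, -0.28 to -0.04). Of 71 nuclear genes of oxidative phosphorylation, 59 were lower in E4 astrocyte-like cells (median -0.11), beside 4501 of 9480 genes in all. Most of the list was lower in other classes too, with 58 of 71 in microglia-like, 58 in oligodendrocyte-like, 58 in choroid plexus-like, 57 in endothelial-like and 63 in ependymal-like cells. Over all genes with at least 200 UMIs, the numbers lower in the same order of classes were 3384 of 8916, 2732 of 6805, 2028 of 4919, 2787 of 7742 and 2296 of 4685. The genes of the list that were lower in astrocyte-like cells included Cox7c at 649 CPM in E4 and 757 CPM in E3. The 13 transcripts made by the mitochondrial genome had a median of 0.07, with 8 higher and 5 lower. The 1 past the limit was mt-Atp8, lower in E4 at 272 CPM against 403 CPM in E3 (-0.57, -0.63 to -0.50). It was at -0.57 in microglia-like cells too. In microglia-like cells Slc25a1, the citrate carrier, was the 1 of 19 feeding or draining genes past the limit, at 25.2 CPM in E4 and 19.4 CPM in E3 (0.38, 0.14 to 0.62). Of all genes in that class 4.95% were past it higher and 1.77% lower.

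Genes that feed the cycle were also compared between classes. Glud1 in microglia-like cells was at 117 CPM (E4) and 115 CPM (E3), against the astrocyte-like level given above. The 3 genes that come next were chosen after their values were seen. Me1, cytosolic malic enzyme, was at 90.3 CPM (E4) and 87.1 CPM (E3) in astrocyte-like cells and 3.11 CPM (E4) and 1.64 CPM (E3) in microglia-like cells. Pck2, the mitochondrial enzyme that turns oxaloacetate into phosphoenolpyruvate, was at 41.5 CPM (E4) and 33.8 CPM (E3) in microglia-like cells and 7.32 CPM (E4) and 7.54 CPM (E3) in astrocyte-like cells. Slc25a13, an aspartate and glutamate carrier, was at 60.5 CPM (E4) and 52.6 CPM (E3) in oligodendrocyte-like cells and 0.574 CPM (E4) and 0.932 CPM (E3) in astrocyte-like cells.

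The genes whose levels over the 10 classes lay closest to those of a member were looked for among 10415 genes. Cs went most closely with Mtch2 (Pearson's r = 0.976), Hibch (0.973), an enzyme of valine breakdown, and Desi2 (0.967). Mdh2 went with Micos13, Phb and Pam16 (0.99, 0.99 and 0.989), all parts of mitochondria, and Sucla2 with Ndufa8 (0.987), a subunit of complex I. Idh3a went with Pgk1 (0.987), a glycolytic enzyme, and Pcx with Gstk1 (0.941), Mapre3 (0.930) and Nat8f1 (0.930). These are descriptions over 10 points that share libraries and depth.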

How the data were processed

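The authors deposited 1 matrix per library of UMI counts with no normalization. Cell Ranger had made it from 10x Genomics 3′ v3 libraries, in version 6.1.1 for E4 and 6.1.2 for E3 per the file headers, on mm10 per the submitters' processing notes. The annotation used for counting is not given in the sources used here. The members and gene lists were chosen with earlier results of these data known, and 1 list of microglial genes was added after sub-clusters were seen.

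The study's filter was applied: 50 to 50000 UMIs and at most 30% mitochondrial UMIs. It left more cells than the study's final set. Counts were scaled to 10000 per cell, log-transformed, reduced to 2000 variable genes without the members and cycle lists and to 20 principal components, and clustered on 15 neighbours (Leiden, resolution 1) in scanpy 1.11.5, both libraries together without batch correction. A class name needed 3 markers at 2-fold or more and with a UMI in 20% of its cells. Of E4 cells 10.8%, and of E3 cells 13.6%, were left out as shallow or mixed sub-clusters of astrocytes, and 5.21% (E4) and 4.00% (E3) stayed unnamed. Mixed clusters of fewer than 250 cells, with 172 cells in E4 and 114 in E3, were left out as doublets. Scrublet, used in an alternative only, called 6.66% of E4 and 4.84% of E3 cells.

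CPM, ratios (at least 200 UMIs over both libraries), shares of cells and their exact intervals were computed here with scipy 1.17.1. The intervals of levels and ratios, not those of shares, were checked on simulated counts. Those counts held counting error alone, so the check does not cover spread between cells. No test of genotype was run. Totals were 71625170 UMIs in E4 and 56415229 in E3. UMI counts of droplets are not replicates, and the intervals do not cover differences between mice. All 9 members were named. Further genes were drawn from up to 4 abundant genes of each list and those past the size limit in astrocyte-like or microglia-like cells. The 3 genes most like each member in level and the 3 leading genes of each sub-cluster described were also open to naming. Not every such gene is printed, and genes of the immediate-early and stress list are given as counts only. Me1, Pck2 and Slc25a13 fall outside this rule. Gene positions are from GENCODE vM21, which matched 32158 of 32285 gene identifiers. A named gene of the cycle list and an overlap between loci are not reported here.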

Additional observations from a re-analysis of the deposited data

Results flagged for a closer look

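Pcx was the 1 member whose interval lay above 0 in 1 group of astrocyte-like cells and below 0 in another. In the group led by Syne1, Gm26917 and Ddx17 the log2 ratio of E4 to E3 was 1.34 (0.20 to 2.56), from 19 UMIs in E4 and 11 in E3. In the group led by Fxyd6, 6330403K07Rik and Thbs4 it was -0.49 (-0.97 to -0.02), from 60 UMIs in E4 and 110 in E3. The difference between the 2 groups was not tested. All 9 genes were looked at in the 6 groups and in the 3 clusters of microglia-like cells. They were also looked at across the cell classes, where a gene had at least 200 UMIs. Intervals are wide and cover counting error only.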

How the results depend on the processing

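No paired analysis was possible because there is 1 library per genotype, and for the same reason no library could be left out. Cell filters, doublet removal, clustering resolution, the use of the members as variable genes, thinning, other totals, centring, means of single cells, returned sub-clusters and lower UMI minimums were tried. Per nuclear oxidative phosphorylation UMI, the median ratio of the members moved to 0.14 in astrocyte-like cells and 0.14 in all cells, since that total was itself lower in E4. Under the same total, 1 member (not 2) was highest in astrocyte-like cells, Pcx in E3 stood at 0.966 times the erythroid-like value, which rests on 3 UMIs, and the count past 25% higher or 20% lower was 2 in oligodendrocyte-like cells (Idh2 and Idh3a) and 0 in endothelial-like cells. The endothelial-like count was also 0 with called doublets left out and at resolution 0.5, where Pcx had under 200 UMIs, and at 1.5-fold. Thinned to 1000 UMIs, 1 member (Fh1, 0.37) was past that limit in astrocyte-like cells, and Pcx stood 2.49-fold (E4) and 1.96-fold (E3) above the next class. Centred on the median gene, 1 member (Pcx, -0.33) passed it in oligodendrocyte-like cells. In neuroprogenitor-like cells the count of 2 was 1 with called doublets left out, at resolution 0.5, with the total without mitochondrial, haemoglobin and rRNA-overlapping genes and when centred, and 0 under the stricter cell filter, at resolution 2, as the mean of each cell's CPM and at 1.5-fold. The count of 0 was 1 in ependymal-like cells as the mean of each cell's CPM, and in meningeal-like cells 1 under the stricter cell filter, 1 with at least 50 UMIs and 2 with no minimum. Of 834 values of single members under an alternative, 801 stayed within the counting interval and 33 left it, 11 of them under thinning, 9 as the mean of each cell's CPM and 12 per oxidative phosphorylation UMI. Part of the 801 could not move. The lower UMI minimums (at least 50 UMIs and no minimum) leave every ratio as it was, and each gave 68 such values. Returned sub-clusters change astrocyte-like values only, and another resolution or other variable genes cannot change values over all cells. The log2 difference in Suclg2 to Sucla2 between astrocyte-like and microglia-like cells stayed negative under every alternative tried. Depth limits Pcx outside astrocytes and all members in macrophage-like and erythroid-like cells.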
